A study of Mus musculus with 24 samples.

Results

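The guanylate-binding proteins (GBPs) and the immunity-related GTPases (IRGs) are 2 families of GTP-hydrolysing proteins whose genes are switched on by interferon. The 10 genes described here are Gbp2, Gbp3, Gbp4 and Gbp7 of the GBP family and Irgm1, Irgm2, Igtp, Iigp1, Tgtp1 and Tgtp2 of the IRG family. They were chosen by gene name, 10 of the 43346 rows of the count table, and all 10 were among the 19678 genes that passed the filter on low counts. They were followed in cortex RNA of 24 C57BL/6 mice, 1 library per mouse, in 4 groups of 6, each made up of 3 males and 3 females; the sex of each library was not used here, and replicate numbers only name the libraries of a group. Mice of the R47H induced group were TREM2-R47H+/+; Cx3cr1CreER/+ and were given tamoxifen, which is meant to start TREM2 expression in microglia. Mice of the R47H control group had the same genotype and were given corn oil, the vehicle. Mice of the WT induced group were TREM2-WT+/+; Cx3cr1CreER/+ and were given tamoxifen, and mice of the WT control group had that genotype and were given corn oil. All 4 groups therefore carried a TREM2 allele and 1 copy of the Cre recombinase in the Cx3cr1 gene, which acts in microglia and in other cells that express Cx3cr1. R47H is a TREM2 variant known as a risk factor for Alzheimer's disease. No group without TREM2 allele or without Cre was analysed here, so an action of tamoxifen itself and an action of the induced TREM2 cannot be told apart. No source used here gives the age of the mice.

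Interferons bind receptors on the cell surface, JAK kinases pass the signal on, and transcription factors then act on target promoters through the gamma-activated sequence (GAS) and the interferon-stimulated response element (ISRE), the second of which is bound by factors of the IRF family. GBPs and the effector IRGs (in mice Iigp1, also called Irga6, and Tgtp1 and Tgtp2, which encode Irgb6) are loaded onto the membranes of vacuoles that hold parasites and bacteria. The regulatory IRGs (Irgm1, Irgm2 and Igtp, also called Irgm3) sit on the cell's own membranes and keep the effectors inactive there. In brain these genes are used as readouts of interferon signalling in microglia, endothelium and other cells.

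Library totals ran from 27933505 to 56082520 counts, and from 11.49% to 24.44% of them fell in Lars2, Yam1 and AY036118, which gather reads of ribosomal RNA. Neuron markers summed to 8861 to 9781 CPM (counts per 1000000 of the TMM-scaled library total) and astrocyte markers to 4175 to 4913 CPM in the 24 libraries. Mouse Trem2 had 6.01 to 7.61 CPM in R47H induced, 6.61 to 9.08 in R47H control, 5.41 to 9.32 in WT induced and 5.93 to 6.95 in WT control mice; reads of a construct from another species need not count towards it, so it does not check the labels. Markers of blood-borne immune cells set WT induced replicate 6 apart, as described with the markers, and results that rest on it are also given without it.

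The genes lie in clusters. In mm10 coordinates of the deposited table, Gbp7 (ENSMUSG00000040253, chr3:142530338-142550083), Gbp3 (ENSMUSG00000028268, chr3:142560052-142573209) and Gbp2 (ENSMUSG00000028270, chr3:142620602-142638008) follow each other on the plus strand of chromosome 3, and Gbp4 (ENSMUSG00000079363, chr5:105115767-105139586) is on the minus strand of chromosome 5. Irgm1 (ENSMUSG00000046879, chr11:48861968-48871683), Tgtp1 (ENSMUSG00000078922, chr11:48985327-48994172) and Tgtp2 (ENSMUSG00000078921, chr11:49057194-49064206) are on the minus strand of chromosome 11. Igtp (ENSMUSG00000078853, chr11:58199556-58207591) and Irgm2 (ENSMUSG00000069874, chr11:58199618-58222779) overlap on its plus strand. The library kit does not mark strand and neighbouring copies are alike, so some reads cannot be assigned with certainty. In the GENCODE vM21 annotation another gene covers 11.3% of the exon bases of Gbp7 (mainly Gm43802), 8.01% of Igtp (Irgm2), 6.96% of Tgtp1 (Gm12185) and 4.39% of Irgm2 (Igtp). Of the 50-base words of each gene's transcripts, 7.36% of Gbp4's, 3.33% of Igtp's and 2.56% of Irgm2's occur exactly in another gene, against 0.699% of Tgtp1's and 0.186% of Tgtp2's; near matches with a mismatch were not counted.

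Promoter windows from RefSeq (build GRCm38.p6, 250 bases before to 50 after the annotated start, 32851 windows in all) were searched for the GAS core TTCNNNGAA, which reads the same on both strands, and for the ISRE-like core, GAAA, any 2 bases and GAAA, on both strands. The 80-base stretches around the ISRE-like match are shown because these are the elements through which interferon is known to act on the families; they run 5′ to 3′ on the gene's own strand, and capitals mark bases in a GAS or ISRE-like match. The positions are chr3:142530243-142530322 plus strand for Gbp7, chr3:142559959-142560038 plus for Gbp3, chr3:142620564-142620643 plus for Gbp2, chr11:48871411-48871490 minus for Irgm1, chr11:48992284-48992363 minus for Tgtp1, chr11:49064243-49064322 minus for Tgtp2, chr11:58199482-58199561 plus for Igtp and chr11:58214873-58214952 plus for Irgm2.
Gbp7: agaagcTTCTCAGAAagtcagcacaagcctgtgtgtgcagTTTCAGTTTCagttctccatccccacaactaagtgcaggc
Gbp3: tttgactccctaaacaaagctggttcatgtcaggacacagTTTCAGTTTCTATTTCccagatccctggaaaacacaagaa
Gbp2: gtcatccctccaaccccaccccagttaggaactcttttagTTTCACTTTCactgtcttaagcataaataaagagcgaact
Irgm1: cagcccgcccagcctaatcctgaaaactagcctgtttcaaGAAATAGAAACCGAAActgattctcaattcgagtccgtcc
Tgtp1: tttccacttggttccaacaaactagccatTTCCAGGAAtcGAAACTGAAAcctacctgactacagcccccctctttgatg
Tgtp2: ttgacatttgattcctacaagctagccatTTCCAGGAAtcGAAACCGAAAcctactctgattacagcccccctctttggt
Igtp: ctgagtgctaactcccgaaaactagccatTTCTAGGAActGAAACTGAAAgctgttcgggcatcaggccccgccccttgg
Irgm2: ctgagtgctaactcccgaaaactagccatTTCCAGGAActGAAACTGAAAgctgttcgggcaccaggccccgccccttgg

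Gbp4 and Iigp1 were not searched here. All 8 genes shown had an ISRE-like match in a window, against 3.44% of all windows, and a second annotated start of Gbp3 had none. A GAS match was present in 5 of the 8 genes (Gbp7, Igtp, Irgm2, Tgtp1 and Tgtp2), against 8.3% of all windows, and 0.454% of windows held both. In Gbp7, Gbp3 and Gbp2 the ISRE-like match lies on the strand opposite to the gene, in the 5 IRG genes on the gene's own strand. In Igtp, Irgm2, Tgtp1 and Tgtp2 the GAS match starts 11 bases before the ISRE-like match, with 2 bases between them. That arrangement was noticed after the sequences were seen; 5 of the 32851 windows (0.0152%) hold it, those 4 and the window of Gm12185, a gene that overlaps Tgtp1. The stretches of Igtp and Irgm2 are identical at 78 of 80 bases, and those of Tgtp1 and Tgtp2 at 56 of 80. Pairs of a Tgtp copy with Igtp or Irgm2 are identical at 44 to 51 of 80. Pairs with Gbp7, Gbp3, Gbp2 or Irgm1 are identical at 13 to 32 of 80. The 4 stretches with the arrangement are thus alike, and they are not independent occurrences of it. These matches are letters in a window and are no measure of binding.

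**Figure D1:**
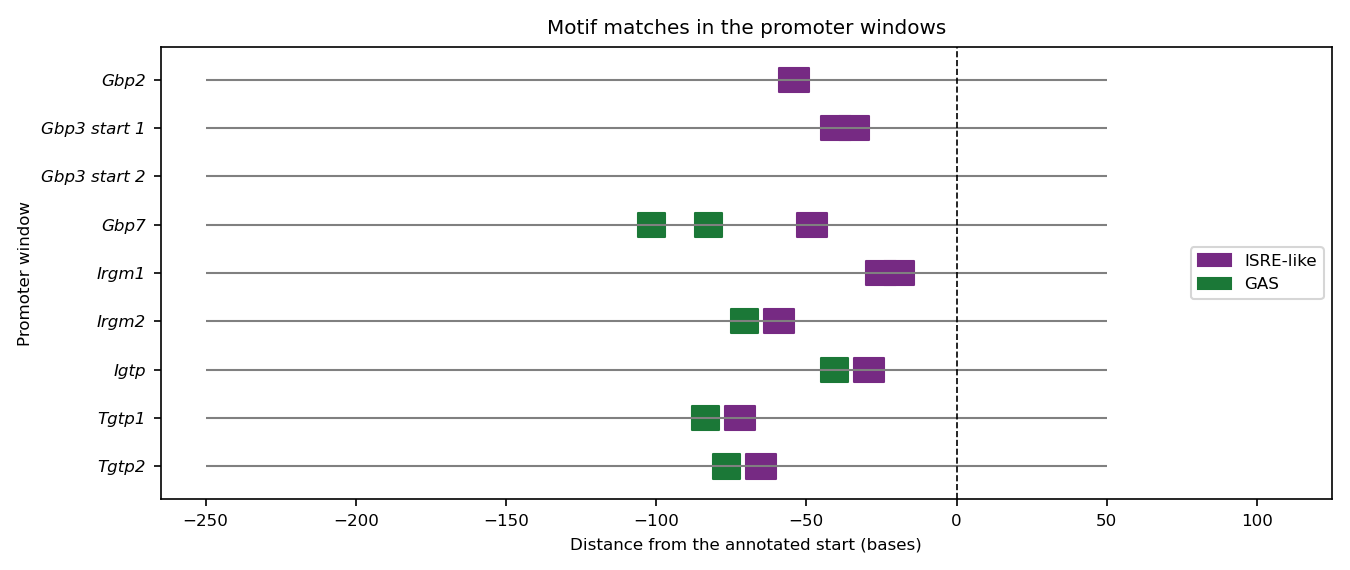
Positions of GAS matches (TTCNNNGAA, green) and ISRE-like matches (GAAA, any 2 bases, GAAA, either strand, purple) in the promoter windows of 8 genes, as distance in bases from the annotated start (dashed line). All matches lie upstream of the start; the GAS match directly precedes the ISRE-like match in Irgm2, Igtp, Tgtp1 and Tgtp2, and Gbp7 holds 2 GAS matches farther upstream.

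Compared per kilobase of gene length, the levels formed 3 tiers. In WT control mice the median was 1.65 CPM per kb for Igtp, 1.23 for Irgm1, 1.19 for Gbp3, 0.995 for Gbp7, 0.934 for Gbp2 and 0.817 for Irgm2. Iigp1 followed at a median of 0.447 and Gbp4 at 0.342 CPM per kb, and the Tgtp copies were lowest, Tgtp1 at 0.0742 and Tgtp2 at 0.0688. Neighbours in this order from Irgm1 to Irgm2 lay within their spread (mean ± SD over 6 mice, 1.21 ± 0.11 CPM per kb for Irgm1, 1.23 ± 0.26 for Gbp3, 1.02 ± 0.098 for Gbp7, 0.898 ± 0.12 for Gbp2 and 0.849 ± 0.22 for Irgm2), as did Iigp1 (0.405 ± 0.11) and Gbp4 (0.348 ± 0.058), and Tgtp1 (0.0834 ± 0.035) and Tgtp2 (0.0767 ± 0.033). In R47H induced and R47H control mice Igtp again had the highest median, at 1.10 and 1.24 CPM per kb, and the Tgtp copies the lowest, at 0.0606 and 0.0674 for Tgtp1. These are low levels: Tgtp1 and Tgtp2 had 2 to 25 and 0 to 19 counts per library outside the WT induced group.

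In mice given tamoxifen, 9 of the 10 genes were lower with TREM2-R47H than with TREM2-WT, and Gbp7 did not pass the test. The question behind this comparison is whether the R47H form differs from the common form once it is induced. Under vehicle 5.74% of all genes were already called between the genotypes, none of the 10 among them. A genotype difference present without tamoxifen and an effect of the induced form cannot be told apart by the comparison of induced mice alone. The comparison was made with edgeR's quasi-likelihood test over all tested genes; log2 fold changes (R47H over WT) ran from -0.99 for Gbp7 to -3.13 for Tgtp2, with a median of -2.30 beside 0.00 over all 19678 genes. Across those genes 3.22% were called lower and 2.59% higher at an adjusted p below 0.05, together 5.8%. In bulk tissue, fewer expressing cells and less RNA per cell cannot be told apart. The CPM ranges of R47H induced and WT induced mice overlapped for 8 of the 10 genes, and those of Irgm1 and Tgtp1 did not, against 1.79% of all genes without overlap in that direction.

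Among the GBPs, Gbp2, which binds parasite vacuoles and bacteria and takes part in inflammasome activation in mouse macrophages, had a lowest, median and highest level of 1.65, 2.19 and 2.60 CPM in R47H induced mice, 1.94, 2.20 and 2.88 CPM in R47H control mice, 1.72, 3.86 and 43.1 CPM in WT induced mice and 1.76, 2.35 and 2.56 CPM in WT control mice. The 4 groups shared the same floor, and only the upper end of the WT induced group lay apart. The fitted difference of Gbp2 between R47H induced and WT induced mice was -2.44 (SE 0.61, edgeR adjusted p = 0.0206). Gbp3, its neighbour in the chromosome 3 cluster, had 1.66, 2.76 and 3.26 CPM in R47H induced, 1.93, 2.97 and 3.71 in R47H control, 2.92, 6.53 and 26.5 in WT induced and 3.17, 3.84 and 5.20 in WT control mice. Its difference was -1.89 (SE 0.42, edgeR adjusted p = 0.0095), and the highest R47H induced library overlapped the lowest WT induced libraries. Gbp4, of the chromosome 5 cluster, had 0.477, 0.967 and 1.35 CPM in R47H induced, 0.897, 0.993 and 1.71 in R47H control, 0.846, 2.57 and 17.1 in WT induced and 1.21, 1.55 and 1.99 in WT control mice. Its difference was -2.87 (SE 0.62, edgeR adjusted p = 0.0075), and its lowest WT induced library lay within the R47H induced range. Gbp7, reported in mouse macrophages to help assemble the phagocyte oxidase, had 4.29, 5.17 and 7.22 CPM in R47H induced, 4.31, 5.11 and 5.60 in R47H control, 4.18, 7.19 and 25.7 in WT induced and 5.12, 5.52 and 6.61 in WT control mice. Its difference of -0.99 (SE 0.32) had an adjusted p of 0.0761, and the lowest of these 24 values was a WT induced library.

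The regulatory IRGs were among the better measured. Irgm1, which protects lysosomal and Golgi membranes from the effectors and takes part in autophagy, had 5.11, 5.71 and 6.24 CPM in R47H induced, 5.14, 6.09 and 6.37 in R47H control, 6.55, 7.99 and 38.5 in WT induced and 5.84, 7.15 and 7.58 in WT control mice. Every WT induced library lay above every R47H induced and R47H control library for Irgm1, while the WT control range overlapped them. The fitted difference between R47H induced and WT induced mice was -1.27 (SE 0.33, edgeR adjusted p = 0.0272). Irgm2 had 1.43, 2.05 and 3.43 CPM in R47H induced, 1.59, 2.26 and 2.60 in R47H control, 2.62, 4.87 and 27.4 in WT induced and 2.13, 2.96 and 4.10 in WT control mice. Irgm2 differed by -2.12 (SE 0.49, edgeR adjusted p = 0.0125) between R47H induced and WT induced mice, and 1 R47H induced library, at 3.43 CPM, lay inside the WT induced range. Igtp, which sits on the endoplasmic reticulum and lipid droplets, had 1.25, 2.23 and 3.65 CPM in R47H induced, 1.51, 2.52 and 3.11 in R47H control, 2.88, 5.05 and 38.9 in WT induced and 3.04, 3.33 and 3.91 in WT control mice. Igtp differed by -2.15 (SE 0.53, edgeR adjusted p = 0.0174), and the highest R47H induced values lay above the lowest WT induced ones.

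The effector IRGs had lower median levels per kilobase than the regulatory IRGs in each group. Iigp1 (ENSMUSG00000054072, on chromosome 18), the gene of the Irga6 protein that disrupts Toxoplasma vacuoles in mouse cells, had 0.866, 0.9999 and 1.23 CPM in R47H induced, 0.602, 0.948 and 1.46 in R47H control, 0.901, 2.61 and 30.6 in WT induced and 0.583, 1.40 and 1.56 in WT control mice, a difference of -2.99 (SE 0.68, edgeR adjusted p = 0.0113) between R47H induced and WT induced mice. Its lowest WT induced library lay within the R47H induced range. Tgtp1 had 0.0510, 0.194 and 0.251 CPM in R47H induced, 0.185, 0.216 and 0.692 in R47H control, 0.273, 0.456 and 3.49 in WT induced and 0.169, 0.238 and 0.462 in WT control mice. Its R47H induced and WT induced ranges were adjacent without overlap, and the difference was -2.81 (SE 0.63, edgeR adjusted p = 0.0098). Tgtp2 had 0.0764, 0.147 and 0.331 CPM in R47H induced, 0, 0.138 and 0.166 in R47H control, 0.0929, 0.599 and 5.10 in WT induced and 0.124, 0.202 and 0.401 in WT control mice; the library at 0 held 0 of 39543482 counts, which allows up to 0.0785 CPM. Tgtp2 differed by -3.13 (SE 0.77, edgeR adjusted p = 0.0180) between R47H induced and WT induced mice, with overlapping ranges. With the counts of Tgtp1 and Tgtp2 added together, which removes the question of which copy a read came from, the difference was -2.99 (SE 0.67, edgeR adjusted p = 0.0103).

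**Figure D2:**
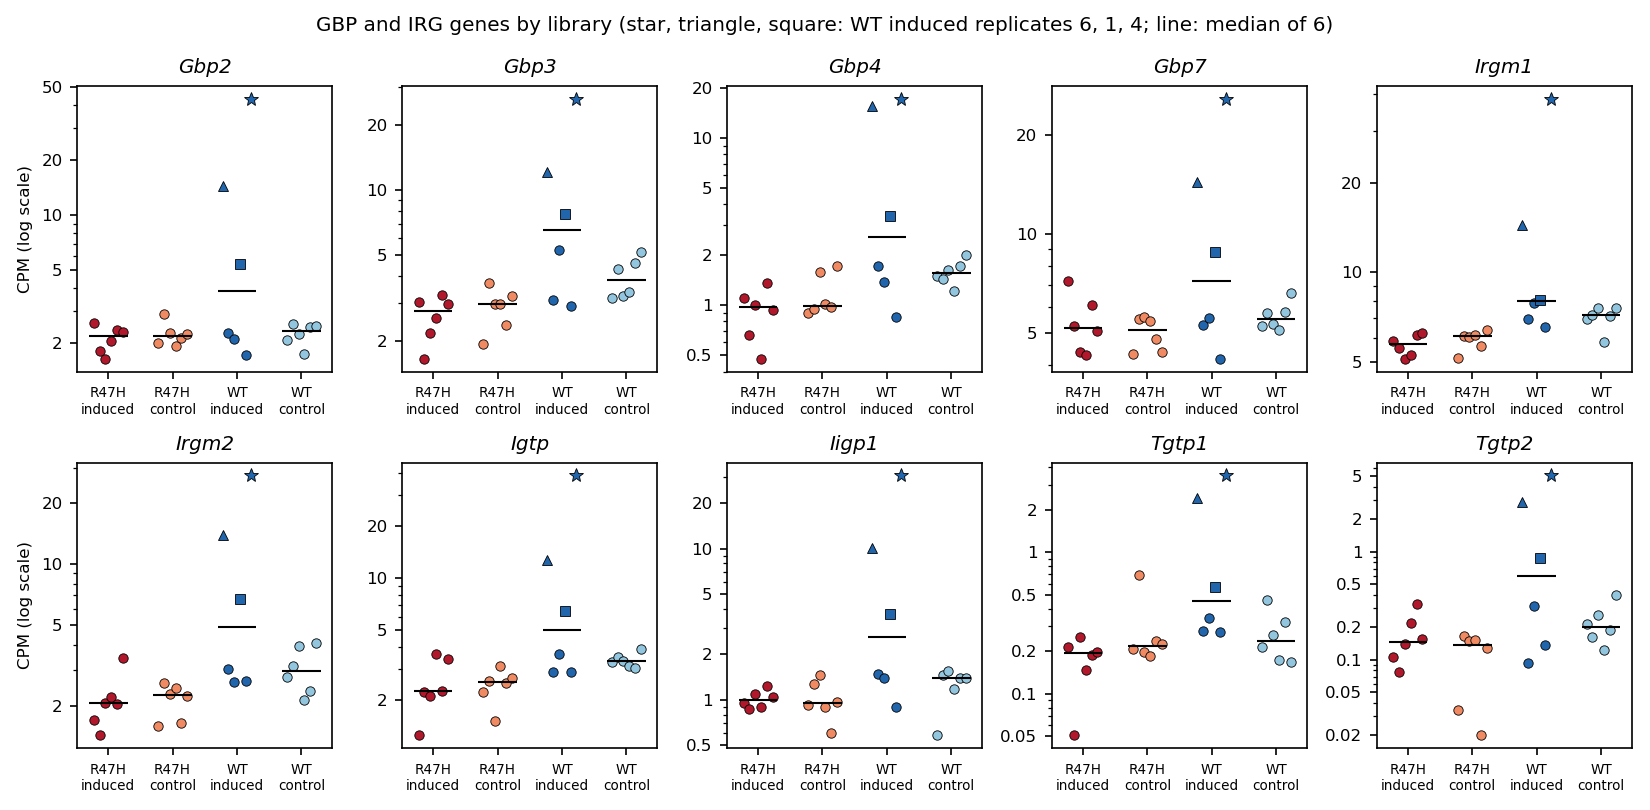
Level of each of the 10 genes in CPM (log axis) in every library of the 4 groups, with a line at the median of 6; star, triangle and square mark WT induced replicates 6, 1 and 4, and the 1 value of 0 (Tgtp2 in an R47H control library) is drawn at 0.02. The star is the highest and the triangle the next highest of 24 libraries in all 10 plots, and the other 3 WT induced libraries lie near the WT control values.

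The WT induced group was uneven, and it was uneven in the same way for all 10 genes. WT induced replicate 6 had the highest level of 24 libraries in 10 of 10 genes and replicate 1 the next in 10 of 10. Replicate 4 had rank 3 in 9 of 10 (rank 4 for Tgtp1) and lay above the highest WT control library in 10 of 10. Of the 30 values of the 3 remaining WT induced libraries, 28 were at or below the highest WT control value, the exceptions being Gbp3 and Irgm1 in replicate 3. Against the WT control median, replicate 6 was 4.64 to 25.3 times as high (median over the genes 11.3), replicate 1 was 2.03 to 14.3 times (median 5.41) and replicate 4 was 1.13 to 4.36 times (median 2.23). The largest multiples of replicate 6 were those of Tgtp2 (25.3), Iigp1 (21.9) and Gbp2 (18.3), and the smallest those of Irgm1 (5.38) and Gbp7 (4.64), the genes with the highest CPM in WT control mice. The libraries did not differ by 1 common factor: replicate 6 stood at 1.10 times replicate 1 for Gbp4 and 1.45 times for Tgtp1, but at 3.06 times for Igtp, 3.01 times for Iigp1 and 2.99 times for Gbp2. Replicate 6 held 40.2% (Gbp7) to 63.4% (Iigp1) of the summed CPM of its group. The share of counts in Lars2, Yam1 and AY036118 (the rRNA-like share) was 22.95% in replicate 6, 19.77% in replicate 1 and 20.27% in replicate 4, against 14.74% to 16.0% in the other 3 WT induced libraries. The 10 genes summed to 256, 113 and 51.8 CPM in replicates 6, 1 and 4. In other groups a high share came without high levels. R47H control replicate 1 had the highest share, 24.44%, and the lowest sum of 24 libraries, 19.25 CPM. WT control replicate 2 had 20.06% and 29.96 CPM. With that share as a covariate, edgeR called 4 of the 10 genes lower in R47H induced than in WT induced mice (Gbp3, Gbp4, Irgm2 and Tgtp1), with a median log2 fold change of -1.73, and 5.38% of all genes in either direction.

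**Figure D3:**
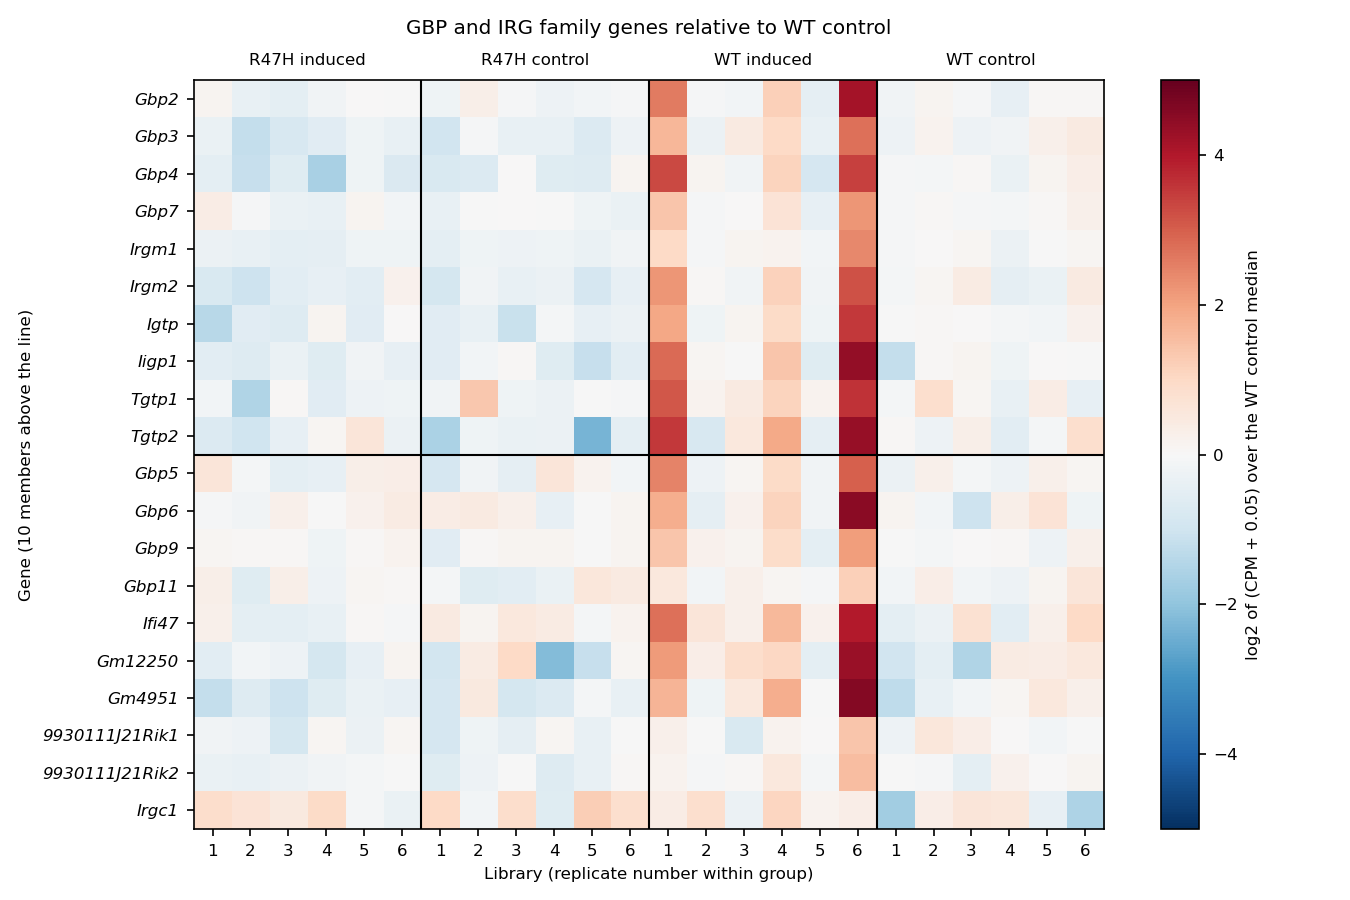
Heat map of log2 of CPM + 0.05 over the WT control median + 0.05 for the 10 genes (above the line) and the 10 other tested family genes (below it), with 1 column per library in 4 groups of 6. Replicates 6, 1 and 4 of the WT induced group are red in nearly all rows, and the R47H columns are pale or blue in most rows of the 10 genes.

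Replicate 6 carried part, and replicates 6 and 1 together most, of the difference between R47H induced and WT induced mice. Without WT induced replicate 6, 7 of the 10 genes were called lower (Gbp3, Gbp4, Irgm1, Irgm2, Igtp, Iigp1 and Tgtp1), with a median log2 fold change of -1.33, where 4.86% of all genes were called in either direction; Gbp2 was at -1.26 (SE 0.40, edgeR adjusted p = 0.0798), Tgtp2 at -2.21 (SE 0.68, edgeR adjusted p = 0.0638) and Gbp7 at -0.50 (SE 0.23, edgeR adjusted p = 0.23). Without replicates 1 and 6, an alternative chosen after seeing the data, 1 gene was called, Irgm1 at -0.37 (edgeR adjusted p = 0.00885), where 3.88% of all genes were called, and the median was -0.83 with all 10 values still below 0. In that fit Irgm1 was also called lower in R47H control than in WT control mice (edgeR adjusted p = 0.0479), where 6.09% of all genes were called. Between R47H induced and WT induced mice, Irgm1 missed edgeR's threshold without R47H induced replicate 3 (adjusted p = 0.0552) or replicate 4 (0.0527). Gbp7 passed it without WT induced replicate 2 (0.0413), 3 (0.046) or 5 (0.0267). The count also depends on the model: limma-voom called 1 of the 10 (Gbp3, adjusted p = 0.0414) and 5.84% of all genes, DESeq2 called 10 and 7.17% of all genes, and an edgeR fit on only the 12 libraries compared called 0 of the 9 genes it could test (adjusted p from 0.09 to 0.263, 8 with an unadjusted p below 0.05) and 4.35% of all genes.

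Induction of TREM2-WT was compared with its own vehicle group to ask whether the genes respond to induction. The fitted log2 fold change, WT induced over WT control, was positive in 10 of 10 genes, from 0.92 (SE 0.32) for Gbp7 to 2.76 (SE 0.74) for Tgtp2, with a median of 1.91. None of the 10 passed edgeR's threshold: the adjusted p ran from 0.452 to 0.492, and the unadjusted p was below 0.05 in 10 of 10. Of all 19678 genes 0.0% passed in this comparison; 1545 had an unadjusted p below 0.05. Across all genes DESeq2 called 2, none of them among the 10, and limma-voom called 0. With the rRNA-like share in the model the median was 1.13 with 2 of 10 at an unadjusted p below 0.05, and limma-voom gave a median of 1.09. The WT control range overlapped the WT induced range in each of the 10 genes. Without WT induced replicate 6 the median was 1.04, and without replicates 1 and 6 it was 0.27.

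In TREM2-R47H mice none of the 10 genes was called between tamoxifen and vehicle. The log2 fold change, R47H induced over R47H control, was positive in 4 genes and negative in 6, with a median of -0.04, a highest value of 0.72 (SE 1.11) for Tgtp2 and a lowest of -0.76 (SE 0.75) for Tgtp1. With the rRNA-like share in the model 10 of 10 values were positive, with a median of 0.35, and none passed. No gene of the 10 passed edgeR's test (adjusted p = 1.0), none had an unadjusted p below 0.05, and 0.0% of all genes passed, 1006 having an unadjusted p below 0.05. By DESeq2 2 genes were called, none of the 10, and limma-voom 0. With standard errors of 0.34 (Gbp7) to 1.11 (Tgtp2) on the log2 scale, the fit over 24 libraries leaves room for sizeable differences in either direction. That fit includes the uneven WT induced group. In a fit on only the 12 R47H libraries, 8 of the 10 genes could be tested and 0 passed, with 0.00531% of all genes called. Their values ran from -0.39 (SE 0.24) for Gbp4 to 0.088 (SE 0.12) for Gbp7, and the smallest SE was 0.074 (Irgm1).

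The difference of these inductions, R47H minus WT, was negative in 10 of 10 genes (median -1.85), from -0.82 (SE 0.46) for Gbp7 to -2.96 (SE 0.96) for Tgtp1. None passed edgeR's test (adjusted p from 0.528 to 0.765), 8 of 10 had an unadjusted p below 0.05, and 0.0% of all genes passed, 1562 having an unadjusted p below 0.05. By DESeq2 3 genes were called, none of the 10, and limma-voom 0. With the rRNA-like share in the model the median was -0.66 with 0 of 10 at an unadjusted p below 0.05, and with limma-voom it was -1.02 with 1 of 10. Without WT induced replicate 6 the median was -1.001 with 4 of 10 at an unadjusted p below 0.05, and without replicates 1 and 6 it was -0.34, with Gbp7 and Tgtp2 then above 0. The induction was therefore not shown to differ between the genotypes.

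Under vehicle, R47H control mice had lower fitted levels than WT control mice in 9 of 10 genes (median log2 fold change -0.35, Tgtp1 at 0.16 with SE 0.70), and none passed edgeR's test, where 5.74% of all genes did (3.04% lower, 2.69% higher). With the rRNA-like share in the model 10 of 10 values were negative with a median of -1.06, and 0 passed. DESeq2 and limma-voom also called 0 of the 10, and 0 of 10 had an unadjusted p below 0.05 in the fit over 24 libraries. In a fit on only the 12 control libraries, whose spread was not set by the WT induced group, 8 of the 10 genes could be tested and Igtp was called lower, at -0.48 (SE 0.13, edgeR adjusted p = 0.0384). That fit called 5.29% of all genes. All 8 values were negative in it (median -0.35), and 5 of the 8 had an unadjusted edgeR p below 0.05, as did 3991 of 18939 genes. The 4 pairwise comparisons share libraries, since each group enters 2 of them, so they are no independent measurements.

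**Figure D4:**
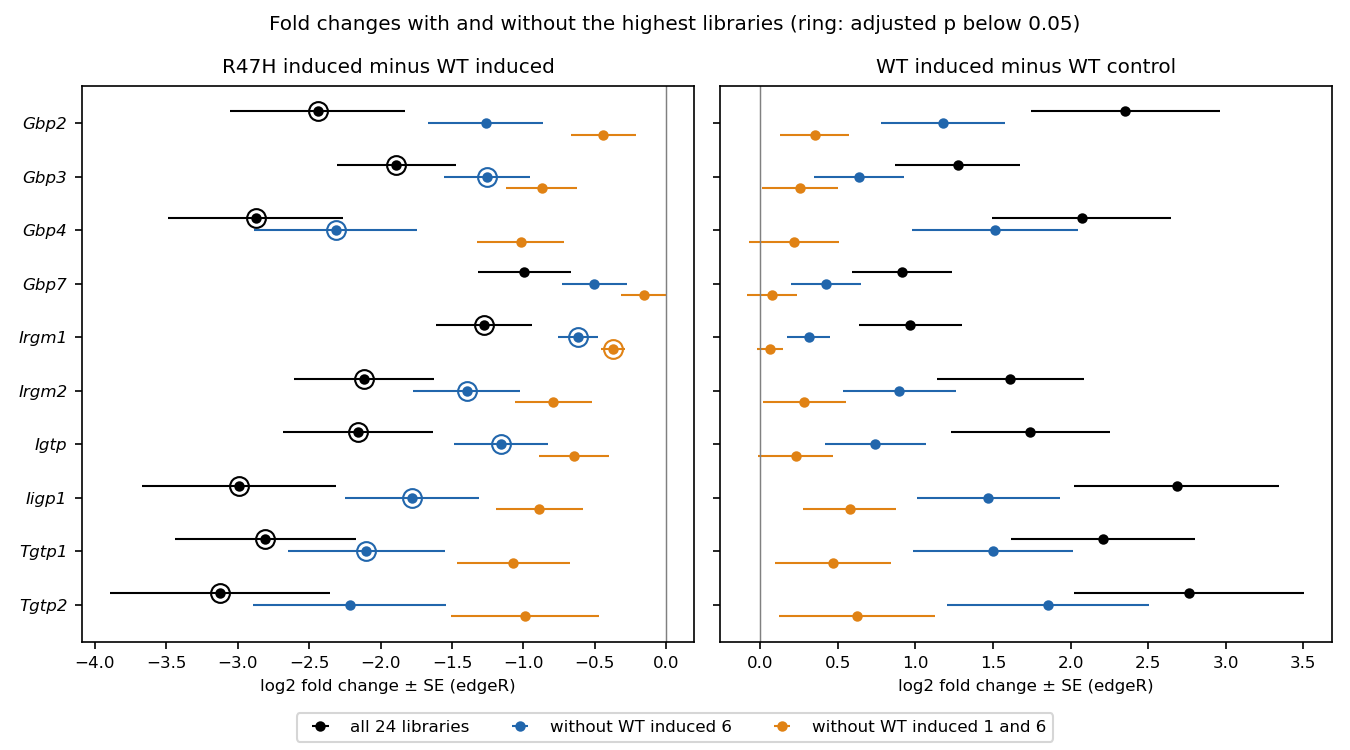
log2 fold changes with their SE for R47H induced minus WT induced mice (left) and WT induced minus WT control mice (right), from fits with all 24 libraries (black), without WT induced replicate 6 (blue) and without replicates 1 and 6 (orange); rings mark an adjusted p below 0.05. On the left 9, 7 and 1 genes carry a ring, on the right none, and the values move towards 0 as the libraries are left out.

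Most other tested members of both families were also highest in replicate 6. Of 16 further GBP and IRG genes, 14 were in the count table and 10 were tested. In R47H induced against WT induced mice 5 were called lower: Gm4951 at -3.58 (SE 0.79, edgeR adjusted p = 0.0092), Gm12250 at -3.04 (SE 0.79), Ifi47 (the IRG Irgd) at -2.60 (SE 0.58), Gbp6 at -2.34 (SE 0.68) and 9930111J21Rik2 at -0.73 (SE 0.22); the median of the 10 was -1.23. Without WT induced replicate 6, 2 were called, Gm4951 at -1.95 and Ifi47 at -1.70. Gbp5 (-1.54, SE 0.48), Gbp9 (-0.93, SE 0.29), 9930111J21Rik1 (-0.56, SE 0.26), Gbp11 (-0.42, SE 0.26) and Irgc1 (0.02, SE 0.39) did not pass. Replicate 6 was the highest of 24 libraries in 9 of these 10 genes. Relative to replicate 1 it was more extreme here than for any of the 10 named genes in Gm4951 (7.72 times), Gbp6 (6.58 times) and Gm12250 (4.70 times), and close to it in Gbp5 (1.45 times). Irgc1, whose product is known from testis rather than from interferon responses, had rank 14 of 24 in replicate 6, rank 13 in replicate 1 and rank 2 in replicate 4. In WT induced against WT control mice all 10 had positive values (median 1.30) and 0 passed, as for all genes.

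Markers of blood-borne immune cells were highest in replicate 6. The 16 T and NK cell markers summed to 13.6 to 16.1 CPM in R47H induced, 13.3 to 17.2 in R47H control, 15.7 to 40.3 in WT induced and 16.0 to 18.7 in WT control mice, and the value of 40.3 was replicate 6, with 16.4 in replicate 1 and 15.7 in replicate 4. In replicate 6 all 16 markers were detected, among them Cd3e with 59 counts, Cd8a with 68 and Ccl5 with 229, against at most 8, 4 and 6 counts in any library other than replicates 6, 1 and 4. Most of the sum is Cd4 and Trbc2, which have counts in every library, so a small share of such cells need not show in it. In replicates 1 and 4, 5 of the 16 were at 0 in each, Cd3d, Cd8b1, Gzma and Ncr1 in both, and these 4 have a median of 0 in the 21 libraries other than replicates 6, 1 and 4 too. Above each of those 21 libraries were the monocyte marker Plac8 with 11 counts in replicate 1 and 11 in replicate 4 (at most 8 elsewhere, 173 in replicate 6), Gzmb with 2 and 2 (at most 1, 44 in replicate 6) and, in replicate 4, Trbc1 with 6 (at most 3, 41 in replicate 6). The 10 monocyte and neutrophil markers summed to 25.2 CPM in replicate 6 and to 3.64 to 5.72 CPM in the other 23 libraries; Ccr2 and Ly6c2, of monocytes, had 379 and 115 counts there, while the neutrophil genes S100a8, S100a9 and Ly6g had 2, 3 and 0. Of the 16 T and NK cell markers 4 passed the filter and of the 10 monocyte and neutrophil markers 3, so fold changes of these lists say little. The 10 microglia markers summed to 381 CPM in replicate 6, against 263 to 294 in the other WT induced libraries and 282 to 298 in WT control mice, and the 8 markers of border-associated macrophages to 10.5 CPM in replicate 6, the lowest of 24, against 12.7 to 17.3 in the other WT induced libraries. Endothelium markers summed to 211 CPM in replicate 6, 221 in replicate 1 and 223 in replicate 4, against 169 to 192 in R47H induced, 172 to 197 in R47H control, 152 to 192 in the remaining WT induced and 158 to 202 in WT control libraries. The 10 astrocyte markers summed to 4851 CPM in replicate 6, against 4523 to 4913 in the other WT induced libraries. Among them Gfap, which rises in reactive astrocytes, had 267 CPM in replicate 6, 127 in replicate 1 and 117 in replicate 4, against a median of 126 CPM in the other 21 libraries. Aqp4 was also higher in replicate 6 (150 against 117 CPM). Aldoc (477 against 480) and Gja1 (160 against 158) were near that median, and Fgfr3 was lower (82.5 against 93.1). The part of these cells in the level of the 10 genes was not tested.

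**Figure D5:**
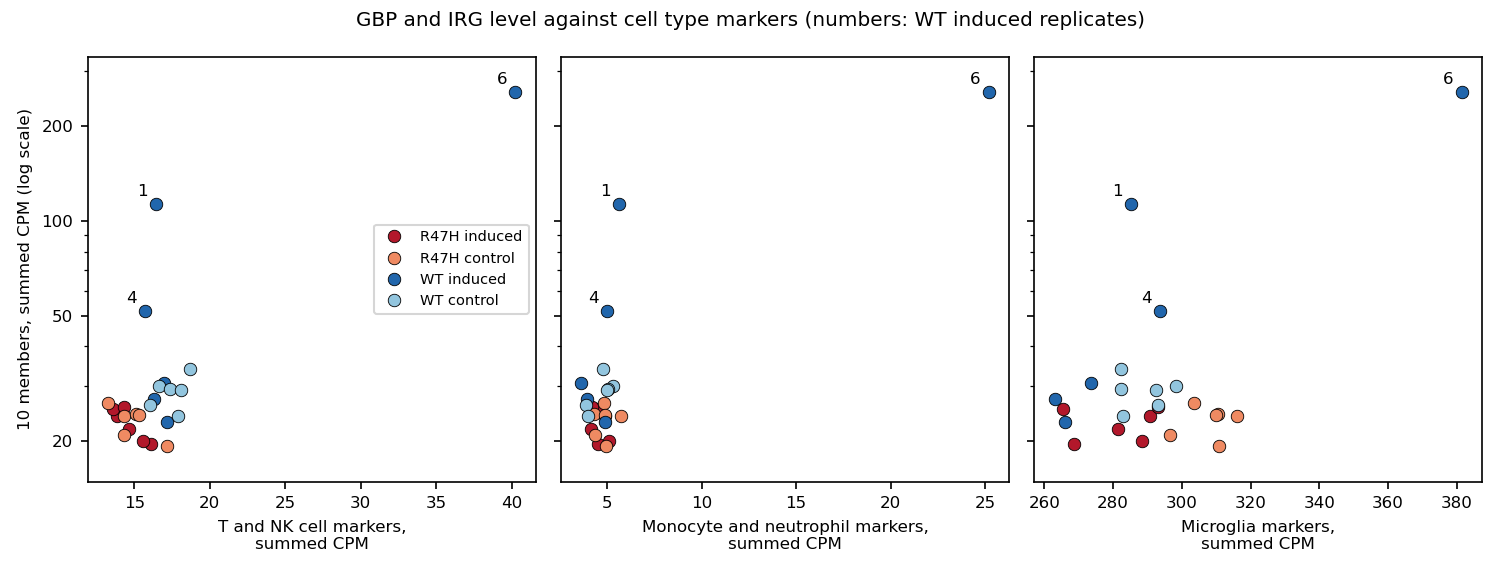
Summed CPM of the 10 genes (log axis) against the summed CPM of T and NK cell, monocyte and neutrophil, and microglia markers, 1 point per library, coloured by group, with WT induced replicates 6, 1 and 4 numbered. Replicate 6 is high on both axes in each panel, while replicates 1 and 4 have 113 and 51.8 CPM of the 10 genes at marker levels within the range of the other libraries.

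The interferon ligands themselves were near or below detection. Of 9 listed ligand genes 0 passed the filter and 6 had no count in any of the 24 libraries. Ifng, the gene of interferon-gamma, had 6 counts, all in WT induced replicate 6, and 0 in each of the other 23 libraries. Ifnk had 20 and Ifne 3 counts over all libraries, none of them in replicate 6.

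The counts of the following lists stand beside the 5.8% of all genes called in this comparison, and 1 called gene in a list of 7 or 8 is near what that share gives. Of 7 receptor and kinase genes 1 was called in R47H induced against WT induced mice, Ifnar1, a subunit of the type I interferon receptor, which was higher at 42.1 to 48.2 CPM in R47H induced against 37.5 to 41.9 in WT induced mice (0.23, SE 0.04, edgeR adjusted p = 0.000312). The same gene was higher in R47H control than in WT control mice, with 42.3 to 47.02 against 38.7 to 40.6 CPM (0.18, SE 0.04, edgeR adjusted p = 0.00303). After tamoxifen Ifnar1 thus differed in the direction opposite to the 9 called genes, and its value without WT induced replicate 6 was 0.23. The interferon-gamma receptor genes Ifngr1 (-0.15, SE 0.09) and Ifngr2 (0.07, SE 0.04) did not pass.

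Of 11 genes listed as STAT and IRF factors, 2 were called lower in R47H induced than in WT induced mice. All 11 values were negative (median -0.69), and 1 of the 2 called, Nlrc5, is neither a STAT nor an IRF. Nlrc5, the transactivator of class I antigen presentation genes, had 0.447 to 0.678 CPM in R47H induced and 0.534 to 12.8 in WT induced mice (-2.57, SE 0.61, edgeR adjusted p = 0.0144). Its vehicle ranges were 0.401 to 0.933 CPM in R47H control and 0.5445 to 1.14 in WT control mice. Irf7, which amplifies the type I interferon response, had 0.73 to 1.53 CPM in R47H induced and 0.737 to 12.4 in WT induced mice (-2.03, SE 0.50, edgeR adjusted p = 0.0184). Irf7 had 0.543 to 1.44 CPM in R47H control and 1.17 to 2.13 in WT control mice. Nlrc5 and Irf7 were also called without replicate 6, at -1.36 and -1.14, and neither without replicates 1 and 6 (edgeR adjusted p = 0.0799 and 0.117). Irf1 (-0.75, SE 0.27, edgeR adjusted p = 0.113) did not pass. Without replicate 6 the list's median was -0.17, and under vehicle no gene of the list was called between the genotypes.

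Of 9 negative regulators 2 were called lower, Usp18 at -1.77 (SE 0.46, edgeR adjusted p = 0.0249) and Isg15 at -1.27 (SE 0.36, edgeR adjusted p = 0.0405), both themselves interferon targets, and without replicate 6 only Usp18 passed (-0.94, edgeR adjusted p = 0.0487). The suppressors of cytokine signalling in that list did not pass, and its median was -0.06. Under vehicle no gene of that list was called between the genotypes. The medians of R47H control and WT control mice were 0.602 and 1.05 CPM for Usp18 and 1.065 and 1.30 for Isg15. Of 15 other interferon-gamma targets 11 were tested and 5 called lower: Parp14 (-1.27), the immunoproteasome subunits Psmb8 (-1.68) and Psmb9 (-1.71), the peptide transporter subunit Tap1 (-1.60) and the tryptophanyl-tRNA synthetase Wars (-0.11). Without replicate 6, Parp14 (-0.74) and Wars (-0.12) were called. Parp14 had 2.32 to 3.16 CPM in R47H induced and 3.46 to 17.4 in WT induced mice, without overlap. Parp14 was called without replicates 1 and 6 too (-0.61, SE 0.16, edgeR adjusted p = 0.0321). No gene of this list was called between the genotypes under vehicle (smallest edgeR adjusted p 0.084). Medians of R47H control and WT control mice were 3.32 and 3.92 CPM for Parp14 and 72.5 and 76.7 for Wars, with overlapping ranges. They were 1.745 and 1.553 for Psmb8 and 0.879 and 0.9045 for Psmb9. The lower medians of Parp14 and Wars with TREM2-R47H were thus present without tamoxifen as well.

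None of 12 autophagy genes whose proteins load these GTPases onto vacuoles was called in R47H induced against WT induced mice by edgeR (smallest adjusted p 0.208, median 0.00), for example Map1lc3a at 0.09 (SE 0.04) and Gabarap at 0.07 (SE 0.03); 3 of the 12 had an unadjusted p below 0.05. Of 8 genes of the inflammasomes that sense cytosolic DNA and lipopolysaccharide, which GBPs help to activate in mouse macrophages, 1 was called lower, the DNA sensor Aim2, with 1.30 to 2.06 CPM in R47H induced, 1.58 to 1.94 in R47H control, 1.95 to 3.21 in WT induced and 2.03 to 2.54 in WT control mice (-0.58, SE 0.12, edgeR adjusted p = 0.00398). Aim2 was called with similar values without replicate 6 (-0.48) and without replicates 1 and 6 (-0.51). Under vehicle its R47H control range lay below the WT control range without overlap, as for 1.51% of all genes. No gene of the list was called between the genotypes there (smallest edgeR adjusted p 0.116). Casp4, the gene of mouse caspase-11, was at -1.19 (SE 0.55, edgeR adjusted p = 0.218) with all libraries and at -0.26 (SE 0.45) without replicate 6.

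Outside both families, the 5 genes whose level followed the mean log2 CPM of the 10 most closely over the 24 libraries were the class I antigen presentation genes H2-Q4 (Spearman's rho 0.901), H2-K1 (0.869) and H2-Q6 (0.848), together with Myoc, the gene of the secreted protein myocilin (0.892), and Sp100, a nuclear body component (0.852). Without WT induced replicate 6, over 23 libraries, the coefficients were 0.887, 0.851, 0.827, 0.880 and 0.832 in that order. These are descriptions of libraries that share groups, depth and composition. H2-K1 had 163 CPM in replicate 6, 38.6 in replicate 1 and 39.3 in replicate 4, against a WT control median of 19.6 CPM, whereas Myoc spanned less, with 18.1, 17.49 and 14.7 against 13.1 CPM. The reads of H2-Q4 and H2-Q6 can match several copies, and their values are uncertain.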

How the data were processed

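Cortex RNA was extracted with Trizol and RNeasy columns with DNase and sequenced from poly-A TruSeq v2 libraries, per the labels' protocols. The deposited table holds raw counts per gene made by the authors; STAR 2.5.2b, featureCounts 1.5.1 and mm10 are named per the submitters' processing notes, and no source used here gives the counting options. Counts of 24 libraries (6 per group, grouped by the labels) were fitted together with edgeR 4.0.16 (R 4.3.3; filterByExpr, TMM scaling, robust quasi-likelihood F-test), and p-values were adjusted with Benjamini-Hochberg over 19678 genes, with a threshold of 0.05. The script was tested on simulated data. P-values weigh a difference against the spread between libraries within the groups. The fit over 24 libraries estimates that spread per gene over all 4 groups together. The uneven WT induced group therefore enters it in every comparison, and so do the more even groups. In R47H induced against WT induced mice, the SE was larger for every gene tested in the edgeR fit on only the 12 libraries compared. For Gbp2 the SE was 0.86 there and 0.61 in the fit over 24 libraries, with -2.44 in both.

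The 10 genes were named by symbol and role lists by textbook function; members and lists were chosen with earlier results of these data known. Named outside the 10 are all tested genes of the other family list, up to 4 genes per list with the lowest p in R47H induced against WT induced mice, and the 5 genes with the highest Spearman's rho; Tap1, Ifnk, Ifne and the single cell type markers were named after their values were seen. Alternatives were DESeq2 1.42.0 (its size factors also within edgeR), limma-voom (limma 3.58.1), library totals, no filter, a 12-library fit, the rRNA-like share as covariate, the Tgtp copies summed and each library left out; leaving out WT induced replicates 1 and 6 together was chosen after seeing the data. Limits on a count of 0 rest on 3 counts and cover counting error only. Promoter sequences are from RefSeq. Protein sequences were not used here.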

Additional observations from a re-analysis of the deposited data

Results flagged for a closer look

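Each gene was screened in each group of 6 for a library whose gap to its nearest neighbour, as a share of the group's range, exceeded Dixon's 95% critical value; 7 of 40 combinations did, and chance flags about 1 in 20. In the WT induced group, replicate 6 was the isolated highest library for Irgm1 (0.752, 38.5 against 14.5 CPM in the next), Igtp (0.727, 38.9 against 12.7), Gbp2 (0.694, 43.1 against 14.4) and Iigp1 (0.688, 30.6 against 10.2). These 4 values come from 1 library and are not independent. In the R47H control group, replicate 2 was the isolated highest library for Tgtp1 (0.9, 0.692 against 0.236 CPM) and for Gbp2 (0.65, 2.88 against 2.27 CPM). In the WT control group, replicate 4 was the isolated lowest library for Irgm1 (0.639, 5.84 against 6.95 CPM).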

How the results depend on the processing

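Of the 10 genes, edgeR called 9 lower in R47H induced than in WT induced mice, 9 with DESeq2's size factors, library totals or no filter, 10 with DESeq2 and 7 to 10 with 1 library left out. Over all genes the calls were 1142 of 19678 with edgeR, 1156 of 19678 with DESeq2's size factors, 795 of 19678 with library totals and 928 of 34082 without filter. DESeq2 called 7.17% of all genes, and fits with 1 library left out called from 875 of 19816 to 1156 of 19777. The count among the 10 genes was 1 with limma-voom, 0 (of 9 tested) in the 12-library fit, 4 with the rRNA-like share as covariate and 1 without WT induced replicates 1 and 6. Over all genes these fits called 5.84%, 4.35%, 5.38% and 3.88% in the same order. The smaller fits have fewer samples, and the 12-library fit does not pool the spread with the more even control groups. Otherwise the cause was not tested. In R47H control against WT control mice, where the count was 0, it was 1 in the 12-library fit (Igtp) and 1 without WT induced replicates 1 and 6 (Irgm1, edgeR adjusted p = 0.0479). Those 2 fits called 5.29% and 6.09% of all genes. Signs changed for genes that were not called. With the rRNA-like covariate, R47H induced against R47H control values were 0.57 for Gbp2, 0.16 for Gbp3, 0.0394 for Gbp4, 0.70 for Iigp1, 0.21 for Irgm1 and 0.0528 for Tgtp1, and Tgtp1 was -0.94 in R47H control against WT control mice. Limma-voom gave 0.00372 for Gbp2 between the control groups and 0.0188 for Iigp1 between the R47H groups, and library totals 0.0315 for Iigp1 there. Without WT induced replicates 1 and 6, the difference of inductions was 0.0101 for Gbp7 and 0.0942 for Tgtp2, and Gbp2 was 2.299e-05 between the control groups. With 1 library left out, Gbp2 ran from -0.0835 to 0.0360 and Tgtp1 from -0.31 to 0.37 between the control groups, and between the R47H groups Gbp7 ran from -0.0036 to 0.15, Iigp1 from -0.14 to 0.12, Igtp from -0.0793 to 0.19 and Irgm2 from -0.17 to 0.11. No paired analysis was possible because the labels give no replicate numbers or pairs; the numbers used here were given in the order of the samples' records and only name libraries. Depth limits Tgtp1 and Tgtp2 most, at 0 to 25 counts per library outside the WT induced group.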
